A study of Mus musculus with 6 samples.

Results

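The 10 genes described here belong to the breakdown of the branched-chain amino acids leucine, isoleucine and valine: *Bcat2*, *Bckdha*, *Bckdhb*, *Dbt*, *Bckdk*, *Ivd*, *Mccc1*, *Acadsb*, *Hibch* and *Hibadh*. *Bckdk* encodes a kinase that inhibits this breakdown, and the others encode its enzymes or subunits of them. All 10 were taken by symbol from the RNA-Seq count tables of 3T3-L1 adipocytes. These listed 24421 gene symbols, of which 12766 had enough counts to be tested. All 10 symbols were found in all 6 tables and all 10 had enough counts.

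Mouse 3T3-L1 cells are fibroblast-like preadipocytes that turn into adipocytes in culture. The labels give their strain as C57BL/6, whereas the line is known to come from Swiss mouse embryos. Cells of both groups received insulin at 870 nM, TZD at 5 µM, Dex at 1 µM and IBMX at 500 µM, and from day 3 the same mixture lacking IBMX and Dex, so that insulin and TZD stayed in both groups. On day 7 the cells were infected with an adenovirus at 100 pfu per cell. The control virus carried *LacZ* (AdLacZ, 3 libraries) and the other virus carried *Lmo3* (Ad*Lmo3*, 3 libraries), which encodes a LIM-only transcriptional cofactor, and the experiments took place 3 days later. The methods describe the viral *Lmo3* as codon-optimized. None of the 6 tables held a read on the symbol *Lmo3*, so that the labels could not be checked through it. Both groups carry a virus, and no uninfected cells were analysed here. The labels number the replicates but do not say that they came from separate cultures, so that the p-values measure the spread between these libraries, which may be technical.

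The counts on genes summed to between 28035639 (Ad*Lmo3* replicate 3) and 38332335 (AdLacZ replicate 2) per library. At these depths 3 counts, taken as the smallest detectable level, correspond to 0.0783 to 0.107 CPM, the count scaled by the library total, which is called normalized below where TMM factors corrected the total for composition. The lowest count of a member was 2106, for *Bckdk* in AdLacZ replicate 3. All 12 adipocyte markers had enough counts to be tested. Their summed level was 20680 to 22860 normalized CPM in AdLacZ and 28140 to 33980 normalized CPM in Ad*Lmo3* libraries. Of these markers 9 rose in Ad*Lmo3* libraries, against 2.71% of all tested genes called higher. The other 3 had positive log2 fold changes that missed the threshold. The 11 preadipocyte and fibroblast markers summed to 19460 to 23400 in AdLacZ and to 18280 to 26550 normalized CPM in Ad*Lmo3* libraries, with none called. In AdLacZ libraries their sums thus overlapped with those of the adipocyte markers. Abundant genes weigh most in these sums, such as *Col3a1* (mean 11380) and *Lpl* (mean 9648 normalized CPM in AdLacZ libraries). The sums therefore do not measure the share of each cell type. Of 5 macrophage markers 2 had enough counts to be tested, and the list summed to 2.11 to 4.61 normalized CPM. The 6 interferon-induced genes were not called, but their sum was 337, 929 and 2426 normalized CPM in Ad*Lmo3* replicates 1, 2 and 3, against 752 to 1026 in AdLacZ libraries. The part of the adipocyte markers and of the interferon-induced genes in the results below was not tested. In bulk RNA a lower level per cell cannot be told apart from fewer cells that express the gene.

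Branched-chain amino acids enter the cell through carriers such as the dimer of *Slc7a5* and *Slc3a2*, and in mitochondria the transaminase BCAT2 takes off their amino group. The branched-chain ketoacid dehydrogenase complex (BCKDH) then carries out the committed and irreversible step. It is built from E1α (*Bckdha*), E1β (*Bckdhb*), E2 (*Dbt*) and an E3 subunit shared with other complexes (*Dld*). The kinase BCKDK phosphorylates E1α and inhibits the complex, and the phosphatase PPM1K removes that phosphate. Separate enzymes then handle the products of leucine (*Ivd*, *Mccc1*), isoleucine (*Acadsb*) and valine (*Hibch*, *Hibadh*). Differentiated adipocytes are known to express this pathway and to use its products for energy and lipid synthesis.

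The region before the transcription start was compared between members, whose log2 fold changes did not all have the same sign. RefSeq start sites on GRCm38.p6 were found for 9 of the 10 genes, all but *Dbt*. The 250 bases before each start were searched on both strands for the GC box GGGCGG, the CCAAT box CCAAT, the nuclear receptor motif AGGTCA, the E-box CACGTG, the C/EBP palindrome TTGCGCAA and the C/EBP-ATF element TGATGCAAT. Motifs can share letters with a neighbouring match. The windows of 3 genes are shown 5′ to 3′ on the strand of the gene, those of the gene that fell, of the gene with the highest log2 fold change, and of the E1β subunit, whose values went the other way from those of E1α. Capitals mark motif letters, and each stretch ends where the earliest annotated transcript begins.
*Bcat2*, chr7:45569903-45570152, plus strand: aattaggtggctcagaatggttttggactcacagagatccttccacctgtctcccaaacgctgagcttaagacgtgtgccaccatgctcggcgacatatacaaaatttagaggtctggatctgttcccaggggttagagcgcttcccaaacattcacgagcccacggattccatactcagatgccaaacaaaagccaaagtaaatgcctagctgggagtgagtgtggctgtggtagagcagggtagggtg
*Hibadh*, chr6:52640390-52640550, minus strand: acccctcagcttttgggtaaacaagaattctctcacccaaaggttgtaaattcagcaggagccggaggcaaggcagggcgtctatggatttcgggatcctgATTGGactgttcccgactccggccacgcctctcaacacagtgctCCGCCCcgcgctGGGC
*Bckdhb*, chr9:83924887-83925136, plus strand: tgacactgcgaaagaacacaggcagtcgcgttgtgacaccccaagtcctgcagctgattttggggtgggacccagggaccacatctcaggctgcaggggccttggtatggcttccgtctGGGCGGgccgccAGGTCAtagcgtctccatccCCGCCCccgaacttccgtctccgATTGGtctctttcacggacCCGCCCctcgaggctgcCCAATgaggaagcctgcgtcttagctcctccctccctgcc

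The *Bcat2* window held none of the 6 motifs, and neither did that of *Bckdha*. In some windows the earliest annotated transcript begins before the RefSeq start. Only 30 bases of the *Bckdha* window, 141 of *Hibch*, 161 of *Hibadh* and 210 of *Ivd* lie before that transcript. The counts given here cover the whole windows. The *Bckdhb* window held 3 GC boxes, 2 CCAAT boxes and 1 nuclear receptor motif. The *Hibadh* window held 2 GC boxes, the second of which begins with the last capitals shown, and 1 CCAAT box. Among the other members, *Hibch* had 5 GC boxes and *Acadsb* had 3, *Ivd* had 4 CCAAT boxes, *Mccc1* had 1 GC box and 3 CCAAT boxes, and *Bckdk* had 1 CCAAT box. A GC box thus stood in 5 of the 9 windows, against 32.7% of the 32851 RefSeq windows of this length, and a CCAAT box in 5 of 9, against 33.8%. The nuclear receptor motif stood in 1 of 9 windows, against 14.0% of all windows. The E-box, present in 6.02% of all windows, the palindrome (0.164%) and the C/EBP-ATF element (0.167%) were found in no member. *Bcat2* and *Bckdhb* each have a further RefSeq start, and the windows before these held none of the motifs. These matches describe letters only, binding was not measured, and a link between motifs and fold changes was not tested.

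*Bcat2* was the only member called, and it fell in Ad*Lmo3* libraries. The mitochondrial transaminase (chromosome 7, 45570153 to 45589711, plus strand, GRCm38) had 318.8, 340.3 and 351.5 normalized CPM in AdLacZ replicates 1, 2 and 3. In Ad*Lmo3* replicates 1, 2 and 3 it had 276.3, 245.5 and 219.8 normalized CPM. All 3 Ad*Lmo3* libraries lay below all 3 AdLacZ libraries, and the means were 337 ± 16.7 and 247 ± 28.3 normalized CPM (SD, n = 3 each). The log2 fold change was -0.45 (standard error 0.0937, 95% interval -0.66 to -0.23), or 26.6% lower, and the quasi-likelihood test of edgeR gave an adjusted p = 0.0401. The call stood close to the threshold and was lost when any of 5 libraries was left out. The adjusted p from edgeR was 0.0670, 0.0923 and 0.163 without AdLacZ replicate 1, 2 or 3, and 0.150 and 0.0836 without Ad*Lmo3* replicate 2 or 3, with log2 fold changes from -0.53 to -0.37 across all 6 omissions. By DESeq2 the adjusted p was 0.000316, and over all alternatives it ran from that value to 0.163. Exons of *Bcat2* overlap an antisense gene, *0610005C13Rik*, over 20.4% of their length, and that symbol had 1 to 10 counts per library. Reads on several genes were left out and the strand setting is not known. These counts therefore cannot show whether reads in the overlap were lost from both genes.

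The transcripts of the BCKDH complex did not pass the threshold, and their values lay on both sides of the controls. *Bckdha*, the E1α subunit that the kinase phosphorylates (chromosome 7, 25629946 to 25658981, minus strand), had 237.3, 261.5 and 248.2 normalized CPM in AdLacZ libraries. It had 229.7, 233.6 and 206.5 normalized CPM in Ad*Lmo3* libraries, all below the controls. The log2 fold change was -0.16 (95% interval -0.33 to 0.02, adjusted p = 0.289, edgeR). Exons of *Bckdha* overlap *B3gnt8* on the opposite strand over 61.7% of their length, and *B3gnt8* had 0 to 5 counts per library. Here too, the counts cannot show whether reads in the overlap were left out.

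*Bckdhb*, which encodes E1β (chromosome 9, 83925145 to 84124240, plus strand), had 160.6, 174.8 and 166.9 normalized CPM in AdLacZ and 187.3, 185.7 and 176.5 in Ad*Lmo3* libraries. Here all Ad*Lmo3* values lay above the controls by a narrow margin, and the log2 fold change was 0.13 (95% interval -0.02 to 0.28, adjusted p = 0.313, edgeR). *Dbt*, which encodes the E2 core that carries the lipoyl arm (chromosome 3, 116513070 to 116549981, plus strand), had 180.5, 187.6 and 225.2 normalized CPM in AdLacZ and 176.3, 178.5 and 148.7 in Ad*Lmo3* libraries. The Ad*Lmo3* values lay below the controls, AdLacZ replicate 3 stood high and Ad*Lmo3* replicate 3 low, and the log2 fold change was -0.24 (95% interval -0.48 to 0.01, adjusted p = 0.265, edgeR). Without these libraries, left out in turn, it was -0.13 and -0.16. The shared E3 gene *Dld* had a log2 fold change of -0.00 (adjusted p = 0.984, edgeR).

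The kinase of the complex, *Bckdk* (chromosome 7, 127904082 to 127910221, plus strand), had 62.8, 70.9 and 62.1 normalized CPM in AdLacZ and 75.2, 78.9 and 78.2 in Ad*Lmo3* libraries. All Ad*Lmo3* values were higher than all control values. The log2 fold change of 0.25 (95% interval 0.09 to 0.41) had an unadjusted p of 0.00746 and missed the threshold after adjustment (adjusted p = 0.0941, edgeR). The phosphatase *Ppm1k* had 29.6, 34.8 and 39.1 normalized CPM in AdLacZ and 26.4, 29.3 and 31.7 in Ad*Lmo3* libraries, with overlapping groups (log2 fold change -0.25, adjusted p = 0.272, edgeR).

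In the leucine branch neither member passed the test and both had overlapping groups. *Ivd*, the isovaleryl-CoA dehydrogenase (chromosome 2, 118861954 to 118882909, plus strand), had 285.5, 307.5 and 311.6 normalized CPM in AdLacZ and 327.0, 347.3 and 286.7 in Ad*Lmo3* libraries. Ad*Lmo3* replicate 3 lay among the controls, and the log2 fold change was 0.09 (95% interval -0.11 to 0.29, adjusted p = 0.630, edgeR). *Mccc1*, the biotin-carrying subunit of methylcrotonyl-CoA carboxylase (chromosome 3, 35959312 to 36000678, minus strand), had 271.8, 229.6 and 258.0 normalized CPM in AdLacZ and 230.0, 232.0 and 237.0 in Ad*Lmo3* libraries. Its Ad*Lmo3* values lay close together at the lower end of the controls, with a log2 fold change of -0.12 (95% interval -0.30 to 0.06, adjusted p = 0.438, edgeR). The partner subunit *Mccc2* had a log2 fold change of -0.01 (adjusted p = 0.962, edgeR).

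In the isoleucine and valine branches all 3 members had higher values in every Ad*Lmo3* library than in any control. Over all tested genes 13.3% did so. Scaled by library size alone, the groups of *Acadsb* and *Hibch* overlapped. None of the 3 passed the threshold with edgeR. *Acadsb*, the short/branched-chain acyl-CoA dehydrogenase of isoleucine breakdown (chromosome 7, 131410601 to 131448944, plus strand), had 219.7, 187.7 and 224.7 normalized CPM in AdLacZ and 245.6, 233.7 and 250.2 in Ad*Lmo3* libraries. Its log2 fold change was 0.21 (95% interval 0.01 to 0.40, adjusted p = 0.209, edgeR). *Hibch*, the hydrolase that frees 3-hydroxyisobutyrate from its CoA ester in the valine branch (chromosome 1, 52844929 to 52920986, plus strand), had 158.8, 137.7 and 165.8 normalized CPM in AdLacZ and 168.9, 173.1 and 174.9 in Ad*Lmo3* libraries. Its log2 fold change was 0.16 (95% interval -0.02 to 0.35, adjusted p = 0.311, edgeR). In both genes the control values spread wider than the Ad*Lmo3* values, with AdLacZ replicate 2 lowest, and without that library the log2 fold changes were 0.13 (*Acadsb*) and 0.09 (*Hibch*).

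*Hibadh*, which encodes the dehydrogenase that oxidizes 3-hydroxyisobutyrate (chromosome 6, 52546228 to 52640389, minus strand), came nearest to a call among the genes with higher values. It had 460.1, 439.3 and 487.6 normalized CPM in AdLacZ libraries and 558.3, 555.8 and 598.4 normalized CPM in Ad*Lmo3* libraries. The gap between the groups was larger than the spread within either. The log2 fold change was 0.30 (standard error 0.0724, 95% interval 0.14 to 0.47), or 23.5% higher, with an adjusted p = 0.0589 from edgeR. It passed the threshold with DESeq2 (adjusted p = 0.00182) and limma voom (adjusted p = 0.0464), and over all alternatives its adjusted p ran from 0.00182 to 0.151.

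**Figure D1:**
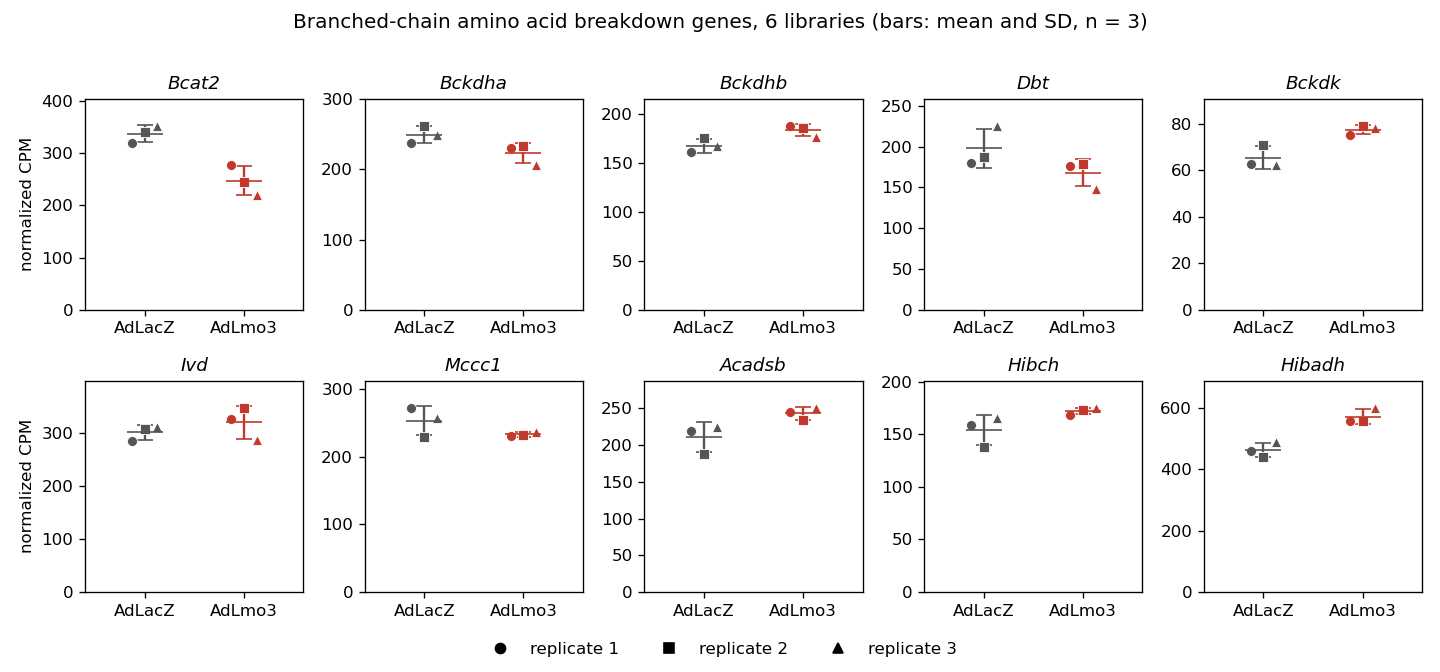
Normalized CPM (vertical axes, starting at 0) of the 10 genes in 3 AdLacZ (grey) and 3 Ad*Lmo3* (red) libraries, where symbols mark the replicate number and bars the mean and SD (n = 3). The *Bcat2* values drop from 318.8 to 351.5 in AdLacZ down to 219.8 to 276.3 in Ad*Lmo3* libraries, those of *Hibadh* sit higher in all 3 Ad*Lmo3* libraries, and the groups overlap in *Ivd* and *Mccc1*.

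Over the 10 members, 0 rose and 1 fell at an adjusted p under 0.05 by edgeR. Of all tested genes 2.71% were called higher and 1.57% lower in Ad*Lmo3* libraries, 4.28% in all (346 higher and 201 lower). Scaling by library size alone turned that split to 266 higher and 501 lower. By DESeq2 2 members were called, *Bcat2* and *Hibadh*, against 8.55% of all genes it tested. At an unadjusted p under 0.05, edgeR gave 4 of the 10 members (*Bcat2*, *Bckdk*, *Acadsb* and *Hibadh*) against 20.6% of all tested genes. The log2 fold changes of the members were positive in 6 and negative in 4, with a median of 0.11 beside a median of 0.00 over all tested genes. No member changed sign under any of the 14 alternatives, all of which use the same libraries. Where the groups do not overlap, leaving out 1 library could hardly change the sign.

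In 8 of the 10 members the groups did not overlap, 5 with all Ad*Lmo3* values higher and 3 with all lower. Over all tested genes 26.5% had groups that did not overlap, 13.3% higher and 13.2% lower. By mean level among all tested genes, *Bckdk* stood at percentile 73.3 and the other members at 90.3 (*Hibch*) to 98.5 (*Hibadh*). The part of expression level in the counts of calls and of groups without overlap was not tested. Scaled by library size alone the count was 6 of 10 against 30.7%, as *Bckdhb*, *Acadsb* and *Hibch* then overlapped and *Mccc1* did not. The summed level of the 10 genes was 2356, 2337 and 2502 normalized CPM in AdLacZ and 2475, 2464 and 2377 normalized CPM in Ad*Lmo3* libraries, so that the totals overlapped. *Bcat2* made up 13.5%, 14.6% and 14.1% of that sum in AdLacZ and 11.2%, 9.96% and 9.25% in Ad*Lmo3* libraries. *Hibadh* made up 19.5%, 18.8% and 19.5% in AdLacZ and 22.6%, 22.6% and 25.2% in Ad*Lmo3* libraries. The shares of *Ivd*, *Mccc1* and *Bckdhb* overlapped between the groups, and a difference in shares was not tested. Ad*Lmo3* replicate 3, the library with the highest interferon-induced sum and the lowest depth, held the lowest value of all 6 for *Bcat2*, *Bckdha* and *Dbt* and the highest for *Acadsb*, *Hibch* and *Hibadh*. Without it the *Bcat2* log2 fold change was -0.37.

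**Figure D2:**
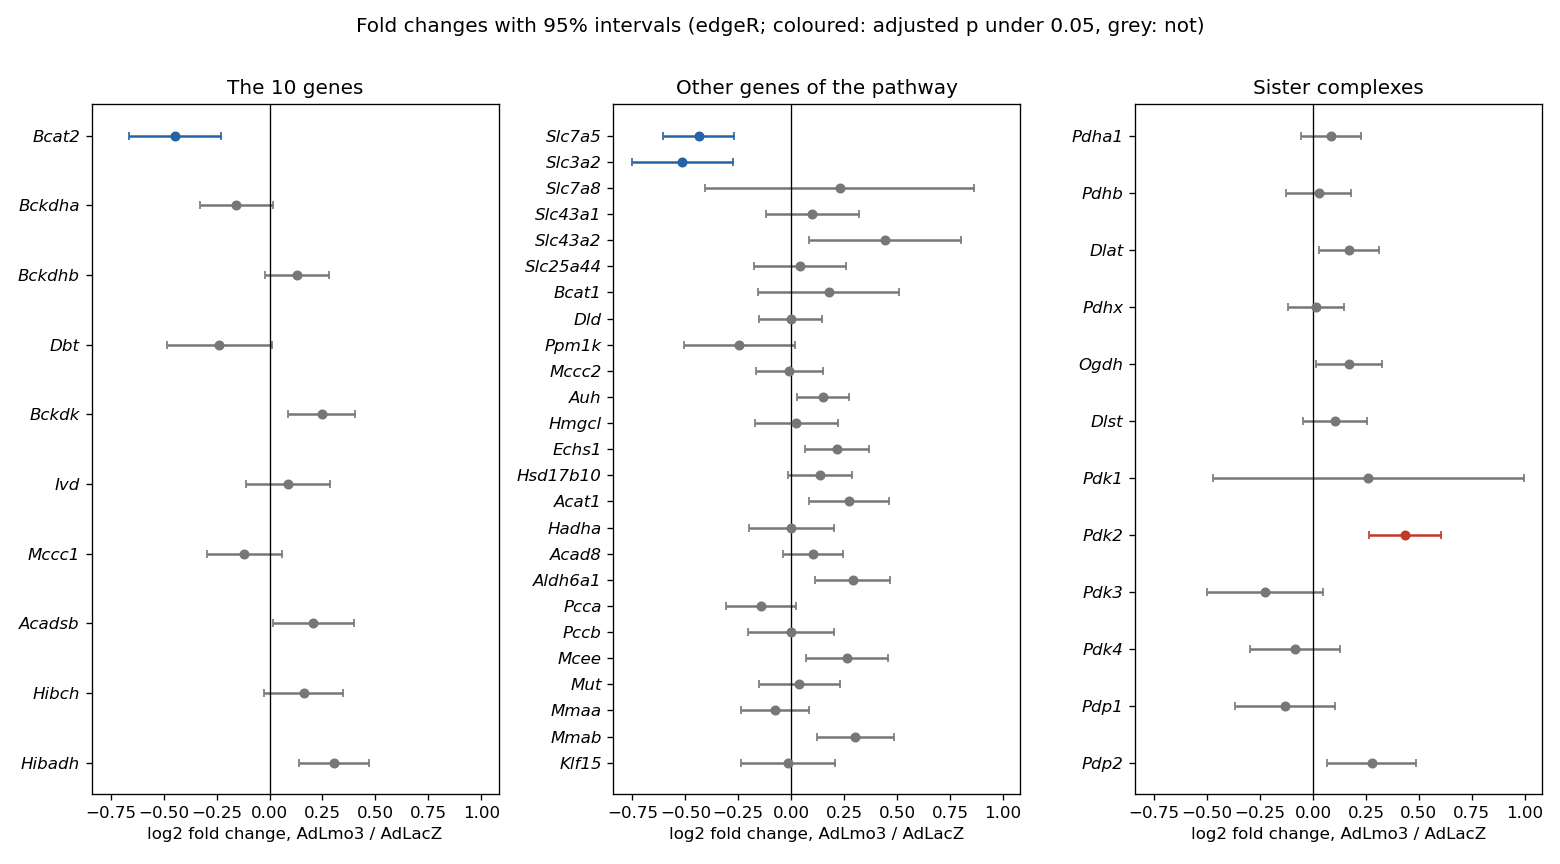
Log2 fold changes of Ad*Lmo3* against AdLacZ libraries (horizontal axis) with 95% intervals from edgeR for the 10 genes, 25 other genes of the pathway and 12 genes of the sister complexes (3 libraries per group). Coloured points passed an adjusted p of 0.05, which were *Bcat2*, *Slc7a5* and *Slc3a2* below 0 and *Pdk2* above 0, and the intervals of *Bckdk*, *Acadsb* and *Hibadh* lie above 0 without passing.

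Levels between genes were compared per kb of exon, taking the merged exons of the annotated coding transcripts as the length. The transcripts expressed may be shorter, and the order between genes depends on these lengths. The lengths include exon stretches that overlap antisense genes, 61.7% for *Bckdha*, 20.4% for *Bcat2* and 12.6% for *Mccc1*. Reads there may have been left out, so that these levels could be too low. In AdLacZ libraries *Hibadh* had the highest level at 253 ± 13.3 normalized CPM per kb, followed by *Bcat2* (135 ± 6.68) and *Bckdha* (131 ± 6.38), whose libraries overlapped. *Bckdhb* (104 ± 4.41) and *Mccc1* (103 ± 8.76) came next and overlapped with each other. *Hibch* (82.7 ± 7.85) and *Ivd* (82.3 ± 3.83) could not be ordered either. *Dbt* (59.9 ± 7.28), *Acadsb* (31.2 ± 2.97) and *Bckdk* (18.7 ± 1.4) followed, each below all libraries of the gene before it (SD, n = 3). The kinase was thus the lowest member, and the phosphatase *Ppm1k* was lower still at 6.20 normalized CPM per kb, while the shared subunit *Dld* reached 188.

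In Ad*Lmo3* libraries *Hibadh* stayed highest at 313 ± 13.1 normalized CPM per kb. *Bcat2*, at 99.3 ± 11.4, stood behind *Bckdha* (118 ± 7.71) and *Bckdhb* (114 ± 3.61), although its highest library overlapped with both. *Mccc1* (94.9 ± 1.47), *Hibch* (92.5 ± 1.65) and *Ivd* (87.4 ± 8.42) lay close together. *Dbt* (50.8 ± 5.03), *Acadsb* (36.0 ± 1.26) and *Bckdk* (22.2 ± 0.572) kept their places at the low end.

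**Figure D3:**
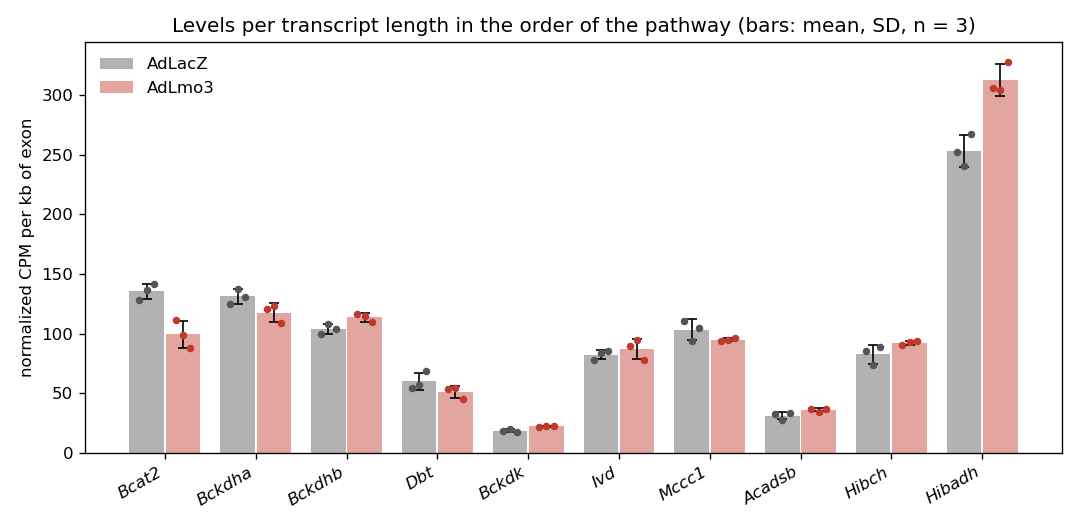
Normalized CPM per kb of exon (vertical axis) of the 10 genes in pathway order, with bars for the mean, whiskers for the SD (n = 3) and points for the libraries of AdLacZ (grey) and Ad*Lmo3* (red). *Hibadh* stands highest in both groups (253 and 313), *Bckdk* lowest (18.7 and 22.2), and *Bcat2* drops from 135 to 99.3.

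Ratios within a library do not depend on how the libraries are scaled, although their level depends on the exon lengths. For *Bckdha* and *Bcat2* it also depends on any reads left out where their exons overlap antisense genes. In all, 6 ratios of counts per kb were compared, and with 3 libraries against 3 the exact permutation test cannot give a two-sided p below 0.1. The 4 ratios whose groups did not overlap reached that value, with an adjusted p of 0.15 over the 6 ratios in each case, so that none could pass 0.05. The ratio of the E1 subunits, *Bckdha* to *Bckdhb*, was 1.26, 1.27 and 1.26 in AdLacZ libraries and 1.04, 1.07 and 0.994 in Ad*Lmo3* libraries. It was nearly the same in the 3 controls and lower in each Ad*Lmo3* library, by 0.29 on the log2 scale on average, with exact permutation p = 0.1. The ratio of kinase to phosphatase, *Bckdk* to *Ppm1k*, was 3.38, 3.25 and 2.53 in AdLacZ and 4.54, 4.29 and 3.93 in Ad*Lmo3* libraries, a log2 difference of 0.49 with exact permutation p = 0.1.

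The ratio of the mitochondrial to the cytosolic transaminase, *Bcat2* to *Bcat1*, was 34.3, 46.2 and 51.7 in AdLacZ and 28.5, 33.5 and 23.1 in Ad*Lmo3* libraries. It differed by -0.63 on the log2 scale with exact permutation p = 0.1, and the nearest libraries of the groups were close. *Bcat1* itself was low and variable, at 22.8 to 31.3 normalized CPM in AdLacZ and 24.6 to 32.5 in Ad*Lmo3* libraries. The ratio of the consecutive valine enzymes, *Hibch* to *Hibadh*, was 0.338, 0.307 and 0.333 in AdLacZ and 0.296, 0.305 and 0.286 in Ad*Lmo3* libraries, a log2 difference of -0.14 with exact permutation p = 0.1. Groups overlapped for *Dbt* to *Bckdha* (log2 difference -0.08, exact permutation p = 0.9) and for *Ivd* to *Acadsb* (log2 difference -0.13, exact permutation p = 0.5). The difference for *Dbt* to *Bckdha* was 0.02 without AdLacZ replicate 3, and that for *Ivd* to *Acadsb* was -0.03 without AdLacZ replicate 2 or without Ad*Lmo3* replicate 3.

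**Figure D4:**
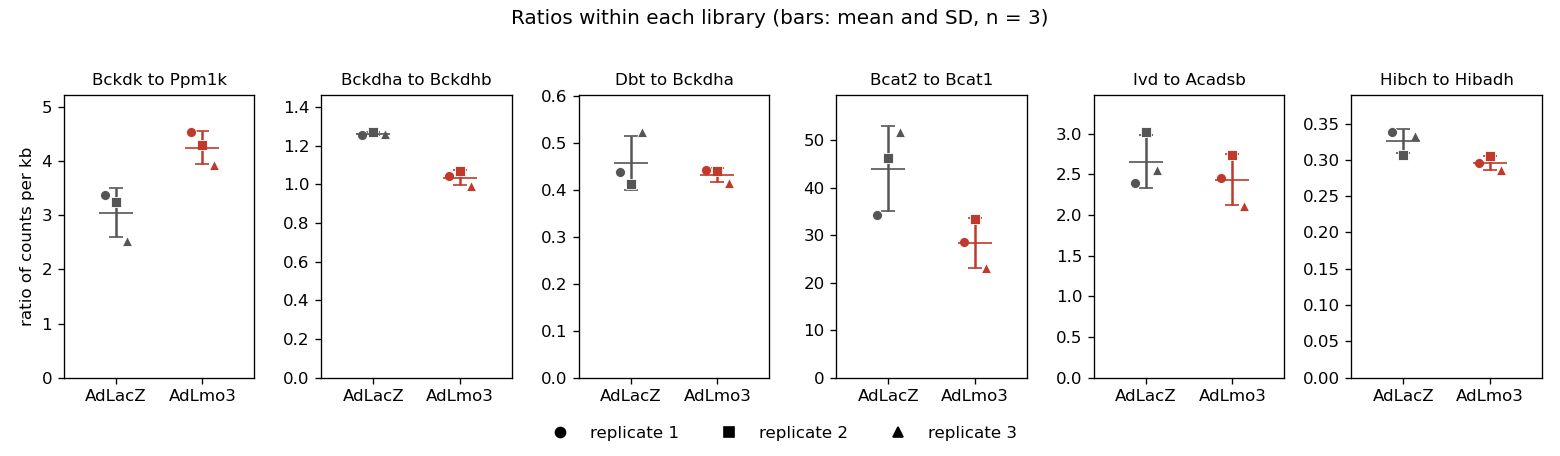
Ratios of counts per kb within each library (vertical axes, starting at 0) for 6 pairs of genes in 3 AdLacZ (grey) and 3 Ad*Lmo3* (red) libraries, with symbols for the replicate number and bars for the mean and SD (n = 3). *Bckdha* to *Bckdhb* moves from 1.26 ± 0.00756 to 1.035 ± 0.0379, *Bckdk* to *Ppm1k* lies higher in all Ad*Lmo3* libraries, and the groups overlap in *Dbt* to *Bckdha* and *Ivd* to *Acadsb*.

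Of 25 further genes of the pathway, all tested, 2 fell and 0 rose in Ad*Lmo3* libraries by edgeR, against 1.57% of all tested genes called lower and 2.71% called higher. Both encode subunits of the plasma membrane carrier for large neutral amino acids. *Slc7a5*, the transporting subunit, had 184.2, 191.4 and 178.6 normalized CPM in AdLacZ and 146.7, 134.9 and 127.7 in Ad*Lmo3* libraries, a log2 fold change of -0.44 (adjusted p = 0.0179, edgeR). *Slc3a2*, the glycoprotein that anchors it, had 342.3, 346.6 and 349.0 normalized CPM in AdLacZ and 281.8, 212.7 and 231.8 in Ad*Lmo3* libraries, a log2 fold change of -0.51 (adjusted p = 0.0331, edgeR). The controls lay close together in both genes and all Ad*Lmo3* libraries were lower. The carrier also transports amino acids outside this pathway. Both calls were lost without any 1 of the 3 AdLacZ libraries or without Ad*Lmo3* replicate 2, and that of *Slc3a2* also without Ad*Lmo3* replicate 3, with log2 fold changes of -0.49 to -0.39 (*Slc7a5*) and -0.63 to -0.43 (*Slc3a2*).

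The other carriers did not pass. *Slc25a44*, the mitochondrial carrier for branched-chain amino acids, had 105.6 to 119.5 normalized CPM in AdLacZ and 101.3 to 128.1 in Ad*Lmo3* libraries (log2 fold change 0.04, adjusted p = 0.858, edgeR). *Slc43a2*, a uniporter for the same amino acids, had 16.9 to 27.3 normalized CPM in AdLacZ and 28.8 to 31.9 in Ad*Lmo3* libraries (log2 fold change 0.44, adjusted p = 0.157, edgeR). *Klf15*, a transcription factor known to act on genes of this pathway, had a log2 fold change of -0.02 (adjusted p = 0.953, edgeR).

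Over the 25 genes, log2 fold changes were positive in 15 and negative in 10, with a median of 0.04, and in 11 the groups did not overlap (9 higher, 2 lower), against 26.5% of all tested genes (13.3% higher, 13.2% lower). Downstream of the complex, *Aldh6a1*, which forms propionyl-CoA in valine breakdown, had 520.0, 515.2 and 585.4 normalized CPM in AdLacZ and 685.3, 658.4 and 636.8 in Ad*Lmo3* libraries (log2 fold change 0.29, adjusted p = 0.0815, edgeR). *Mmab*, which makes the cobalamin cofactor of methylmalonyl-CoA mutase, and *Acat1*, the thiolase that ends isoleucine breakdown, had log2 fold changes of 0.30 and 0.27 (adjusted p = 0.0736 and 0.108, edgeR). These 3 genes and *Echs1*, the enoyl-CoA hydratase (0.22, adjusted p = 0.114, edgeR), passed the threshold with DESeq2, with adjusted p from 0.00796 to 0.0355, and with none of the other alternatives. DESeq2 called 8.55% of all genes it tested. The largest adjusted p among the alternatives was 0.315, for *Acat1*.

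The genes for complexes built like BCKDH gave 1 rise and 0 falls among 12, all tested, beside 2.71% of all tested genes called higher and 1.57% called lower. That gene was *Pdk2*, a kinase of the pyruvate dehydrogenase complex from the same protein family as BCKDK, with 65.2, 76.1 and 66.8 normalized CPM in AdLacZ and 92.8, 96.8 and 92.0 in Ad*Lmo3* libraries. Its log2 fold change was 0.44 (adjusted p = 0.0186, edgeR), and the call was lost without AdLacZ replicate 1 or 3 or Ad*Lmo3* replicate 2, at values of 0.39 to 0.51 over the omissions. *Pdk1* ranged from 148.9 to 409.3 normalized CPM within AdLacZ libraries (log2 fold change 0.26, adjusted p = 0.704, edgeR), and its log2 fold change was -0.06 without AdLacZ replicate 1 and 0.58 without AdLacZ replicate 2. *Pdk3* (-0.23, adjusted p = 0.334, edgeR) and *Pdk4* (-0.09, adjusted p = 0.666, edgeR) did not pass. Over the 12 genes the median was 0.09, with 9 positive and 3 negative values, and 6 had all Ad*Lmo3* values above the controls, against 13.3% of all tested genes.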

How the data were processed

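RNA-Seq libraries of 3 AdLacZ and 3 Ad*Lmo3* samples (NEBNext Ultra II, NextSeq500, single reads of 75 bp) were used. The authors deposited raw read counts per gene symbol. The submitters' processing notes name bcl2fastq, STAR 2.5.0b, DESeq2 1.6.3 and mm10; the counting program, strand setting and annotation are not given in the sources used here. Without strand information, reads of antisense partners cannot be told apart. Reads on no gene (7.15% to 8.94%) or on several (0.476% to 0.543%) were left out.

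The fit used edgeR 4.0.16 under R 4.3.3 (quasi-likelihood test after filterByExpr and TMM, no replicate block, Benjamini-Hochberg over 12766 genes, two-sided, threshold 0.05). Intervals on log2 fold changes come from the quasi-likelihood test and include the spread between replicates. Floors of single libraries cover counting error only. Replicates differed by more than sampling noise. Alternatives were DESeq2 1.42.0, limma 3.58.1 (voom), other scalings and count filters, the block, and leaving out each library. Positions and exon lengths came from GENCODE M21 on GRCm38, promoters from RefSeq, and figures from matplotlib 3.10.9.

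All 10 members are named, and any gene of the pathway and sister complex lists, called genes first. Members and lists were chosen with earlier results of these data known.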

Additional observations from a re-analysis of the deposited data

How the results depend on the processing

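Of the 10 members, 1 was called with edgeR, 2 with DESeq2, 2 with limma voom and 0 to 1 when 1 library was left out. The pathway list gave 2 calls, 6 with DESeq2 and 0 to 2 with 1 library left out, and the sister complexes gave 1 call and 0 to 1 with 1 library left out. Of all tested genes, edgeR called 4.28%, DESeq2 8.55%, limma voom 4.4% and edgeR with 1 library left out 0.596% to 3.89%. Other scalings and count filters kept these counts, and no called gene changed sign. The labels give both groups the same replicate numbers. After centring on the group means, libraries with the same number correlated across genes by 0.05, 0.23 and 0.23. Replicates 2 and 3 correlated best with their own number, and replicate 1 did not. The labels do not say whether libraries with the same number belong together, and these correlations do not settle it. With the replicate number as a block, 0 members were called (*Bcat2* -0.45, adjusted p = 0.0640, edgeR), while the other lists kept their counts of 2 and 1. Among all tested genes 547 were called, against 1104 with DESeq2, 498 with the block and 77 to 501 with 1 library left out (77 without AdLacZ replicate 3). Leaving out a library keeps only 2 of its group, and the cause of each lost call was not tested.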
